A study of Mus musculus with 12 samples.

Results

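Epididymal WAT (eWAT), the visceral fat pad beside the testis, was compared between mice living at –10°C and mice living at 4°C, which is the step of the study that crosses below freezing. The comparison used the 3 arrays titled –10°C and the 3 titled 4°C, 6 of the 12 arrays of the series, and 14860 genes. Both groups were male C57BL/6J mice bought at 7 to 8 weeks of age, held at 22°C, and then adapted for 1 week at 18°C and 1 week at 4°C. Mice of the 4°C group simply stayed there. The –10°C group had 3 days of –5°C by day and 4°C by night, then –10°C by day and 4°C by night to the end of that week, and then 3 weeks of constant –10°C. The labels count 5 weeks of exposure for each. A group at 30°C and one at –20°C by day and –10°C by night (called –10°C/–20°C), 3 arrays each, shared the fit and are given only for reference. The titles call the 3 arrays of a group biological replicates. No animal, litter, cage or array day stands in the labels, so the spread between these arrays may still be partly technical. The hour at which the tissue was taken is not given in the sources used here. Values are log2 levels from RMA, a procedure that corrects, normalizes and summarizes the probes of a gene, and the arrays carried 10356 to 10541 genes above a background of 4.52, a level that 95% of the olfactory receptor genes stayed under. The defining markers of adipocytes were bright, with 6 of 6 measured markers above background on all 6 arrays and *Adipoq* between 12.20 and 12.35.

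White fat stores triglyceride and releases fatty acids in the cold. Part of its cells can take on a thermogenic, brown-like program in which *Ucp1*, *Cidea*, *Dio2* and *Elovl3* are typical genes and mitochondria become dense. Fat cells also keep a circadian clock, a loop in which CLOCK or NPAS2 with BMAL1 (gene *Arntl*) switches on *Per*, *Cry*, *Nr1d* and *Bhlhe41* genes, whose products then repress that pair, while the output factors DBP, TEF and HLF pass the rhythm on to other genes.

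The 2 states were close. The median absolute log2 difference over the 14860 genes was 0.09, with 95% of genes below 0.39 and 99% below 0.67, and 40 genes (0.269%) differed by 2-fold or more, 18 higher and 22 lower with –10°C. The same count was 152 for 4°C against 30°C, 251 for –10°C against 30°C, and 259 for –10°C/–20°C against –10°C, all from the one fit and with arrays in common. Single arrays moved these counts. Without 4°C replicate 2 there were 111 genes for –10°C against 4°C and 273 for 4°C against 30°C, and without –10°C replicate 1 or 3 there were 82 or 66 for –10°C against 4°C. The 95% interval of the difference lay inside 2-fold in both directions for 14147 genes (95.2%) and inside 1.5-fold for 11542 genes (77.7%). Where such genes stood above background the arrays bound the difference, which a p above the threshold alone would not do. These counts and the median difference also include genes below background in both groups, such as *Ucp1*. For them a narrow interval of the signal does not bound a difference in RNA. With only genes above background on at least 3 arrays kept, 10174 genes had an interval within 2-fold. The number of genes kept is not given here, so this count is not a share to set beside the 95.2%. It does not show whether detectable genes were as close as all genes. The median interval reached 0.29 to either side of its difference, while the smallest difference called was 0.88, so smaller changes could go uncalled.

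**Figure D1:**
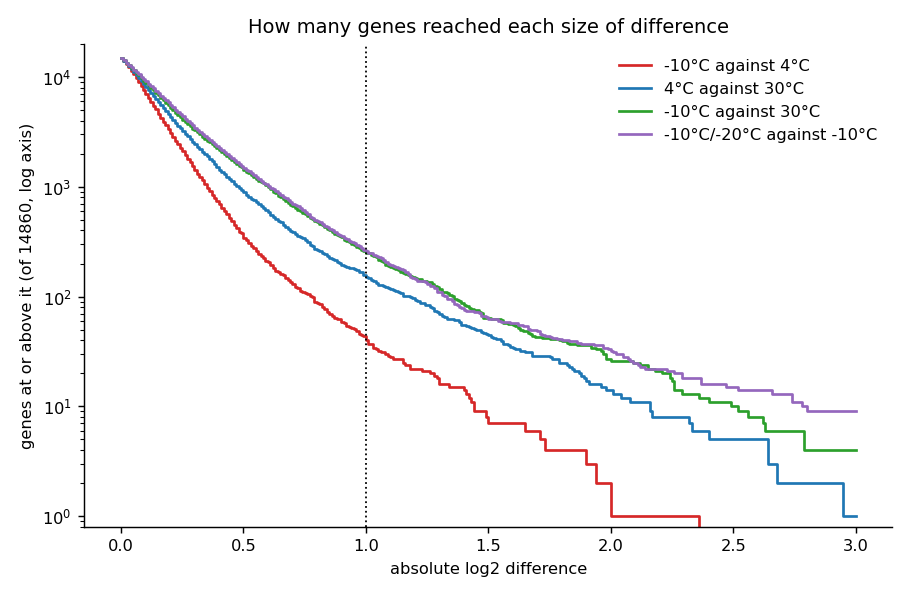
Number of genes (log axis) whose absolute log2 difference reached the value on the horizontal axis, 1 line for each of 4 comparisons of group means of 3 arrays. At 2-fold (dotted line) the line of –10°C against 4°C stands at 40 genes, below the 152 of 4°C against 30°C, the 251 of –10°C against 30°C and the 259 of –10°C/–20°C against –10°C.

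Whole arrays did not separate the groups. Pairs with one array from each group correlated over genes at r = 0.972 to 0.992, pairs of 4°C arrays at 0.974 to 0.992, and pairs of –10°C arrays at 0.987 to 0.993, as a description in which genes are not independent replicates. The root mean square log2 difference was 0.290 to 0.540 between groups, 0.292 to 0.533 within 4°C and 0.269 to 0.370 within –10°C. One array stood apart, 4°C replicate 2, which lay 0.425 and 0.533 from the other 4°C arrays but 0.345 and 0.326 from –10°C replicates 2 and 3. In turn –10°C replicate 1 lay 0.290 and 0.296 from 4°C replicates 1 and 3, and 0.357 and 0.370 from the other –10°C arrays.

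With limma, a linear model that borrows the spread from all genes, 6 of 14860 genes (0.0404%) passed an adjusted p of 0.05 and are said to be called. *Klb* was called higher with –10°C (0.00673% of genes), and *Star*, *Dennd2d*, *Mtss1*, *Per3* and *Prkce* were called lower (0.0336%). At an unadjusted p of 0.05 there were 1065 genes. All 3 –10°C arrays lay above the 3 4°C arrays for 1207 genes (8.12%) and below them for 838 genes (5.64%), and these 2 shares are the background for every such count below. The directions of the 6 genes were the same in all 23 other settings that give a value per gene, while the calls were not. In each of the 6 the arrays of the 2 groups did not overlap. Leaving out arrays therefore could not change a direction. Leaving out 4°C replicate 1 or –10°C replicate 1 left 0 genes called, leaving out –10°C replicate 3 gave 14, and fitting the 6 arrays alone gave 0. In a table of the study, 2 forms of array name appear. All 3 –10°C arrays and 4°C replicate 3 carry a G mark and 4°C replicates 1 and 2 do not. With that form as a block 0 genes were called, and *Klb* had a difference of 1.47 with an adjusted p of 0.093. Past 2-fold there were then 106 genes for –10°C against 4°C, beside 152 for 4°C against 30°C and 243 for –10°C against 30°C, and over the arrays with the mark alone, with 1 array of 4°C and 1 of 30°C, there were 204, 454 and 301. The meaning of the mark is not given in the sources used here.

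**Figure D2:**
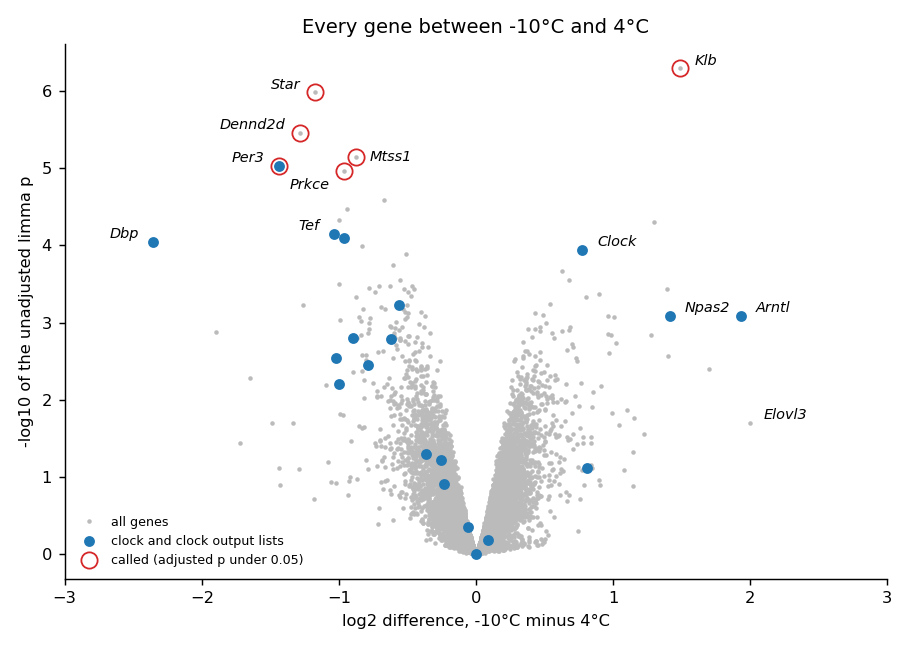
Each point is a gene, with the log2 difference of –10°C minus 4°C (3 arrays each) across and -log10 of the unadjusted limma p upward. Red rings mark the 6 called genes, *Klb* at 1.49 and 5 at negative values, and blue points mark the 20 genes of the clock lists, which reach from *Dbp* at -2.35 to *Arntl* at 1.94.

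*Klb* encodes β-klotho, the membrane partner that lets FGF receptor 1 bind the hormone FGF21, and lies on chromosome 5. Its levels were 7.94, 7.90 and 7.81 with 4°C and 9.33, 9.61 and 9.18 with –10°C. Every –10°C array was more than a full log2 unit above every 4°C array. The difference was 1.49 ± 0.14 (SE, n = 3 and 3), or 2.81-fold with a 95% interval of 2.26 to 3.50 (limma adjusted p = 0.00762). With 30°C the levels were 8.70, 8.68 and 8.86, between the 2 cold groups. The 4°C group was 0.86 below 30°C on the log2 scale, a difference of -0.86 (adjusted p = 0.0107), and the –10°C group was 0.63 above it (adjusted p = 0.0212). With –10°C/–20°C they were 8.82, 8.73 and 9.24, a difference of -0.44 from –10°C (adjusted p = 0.0959).

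Other genes of FGF signaling did not share that difference. Of 19 measured, *Klb* was the 1 called, and their median difference was 0.01 beside 0.02 over all genes. *Fgfr1*, the receptor that works with β-klotho in fat, stood at 9.38, 9.21 and 9.22 with 4°C and 9.42, 9.19 and 9.42 with –10°C, so the groups overlapped. *Fgf21* itself was below background on all 6 arrays. Targets that FGF signaling is known to switch on gave differences of -0.06 for *Dusp6*, 0.08 for *Spry1* and -0.04 for *Spry4*, with overlapping arrays. *Egr1*, another such target, had a difference of -0.97 (adjusted p = 0.52) and overlapping arrays, with one 4°C array at 8.65 and the rest at or below 7.39.

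*Star* encodes the protein that moves cholesterol into mitochondria for steroid synthesis and lies on chromosome 8. It read 6.32, 6.57 and 6.26 with 4°C and 5.03, 5.39 and 5.21 with –10°C. No –10°C array came near the 4°C arrays. It was lower with –10°C by a difference of -1.17 ± 0.12 (SE), 2.25-fold with an interval of 1.87 to 2.71 (adjusted p = 0.00777). The 30°C arrays read 5.03, 4.78 and 4.95 and the –10°C/–20°C arrays 5.41, 5.41 and 5.21, so 4°C was the group that stood out, 1.47 above 30°C (adjusted p = 0.000262), while –10°C was 0.29 above it (adjusted p = 0.198). Of 21 steroid and sterol transport genes, *Star* was the 1 called. *Cyp11a1*, which makes the first steroid from cholesterol, and *Nr5a1*, a driver of steroid-producing cells, were below background on the 6 arrays. The cholesterol exporters *Abcg1* and *Abca1* had differences of -0.46 and -0.34 (adjusted p = 0.433 and 0.533), with all –10°C arrays lower.

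*Dennd2d*, on chromosome 3, encodes a DENN domain protein, a family that loads Rab GTPases of membrane traffic with GTP. Its arrays gave 8.86, 8.37 and 8.45 with 4°C and a tight 7.27, 7.30 and 7.25 with –10°C. The groups were a full unit apart, with a difference of -1.28 ± 0.15 (2.44-fold lower, interval 1.93 to 3.07, adjusted p = 0.0174). Here the –10°C group also lay below 30°C, by a difference of -0.70 (adjusted p = 0.0155), and 4°C was 0.58 above 30°C (adjusted p = 0.0715). The 12 other measured DENN and Rab genes had differences between -0.21 and 0.10, and none was called.

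*Prkce*, on chromosome 17, encodes protein kinase Cε, a kinase activated by diacylglycerol. Levels were 8.69, 8.29 and 8.83 with 4°C and 7.58, 7.71 and 7.64 with –10°C. The –10°C arrays lay close together and below each 4°C array, with a difference of -0.96 ± 0.13 (1.94-fold lower, interval 1.60 to 2.36, adjusted p = 0.0269). Along the series, 4°C was 1.30 above 30°C (adjusted p = 0.000703) and –10°C/–20°C was 0.71 above –10°C (adjusted p = 0.00877). Its relatives *Prkca*, *Prkcd* and *Prkci* had differences of -0.02, 0.10 and 0.01.

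*Mtss1*, on chromosome 15, encodes a protein that bends membrane and binds actin. It stood at 9.36, 9.19 and 9.23 with 4°C and 8.28, 8.34 and 8.52 with –10°C, again without overlap. The difference of -0.88 ± 0.11 was 1.84-fold (interval 1.55 to 2.18, adjusted p = 0.0267). The level went up and down along the series, since 4°C was 0.84 above 30°C (adjusted p = 0.00375), –10°C differed from 30°C by -0.04 (adjusted p = 0.924), and –10°C/–20°C was 0.83 above –10°C (adjusted p = 0.00215). Of 13 genes of this family and of actin assembly it was the 1 called, and *Baiap2*, a relative, had a difference of -0.27 with every –10°C array lower.

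**Figure D3:**
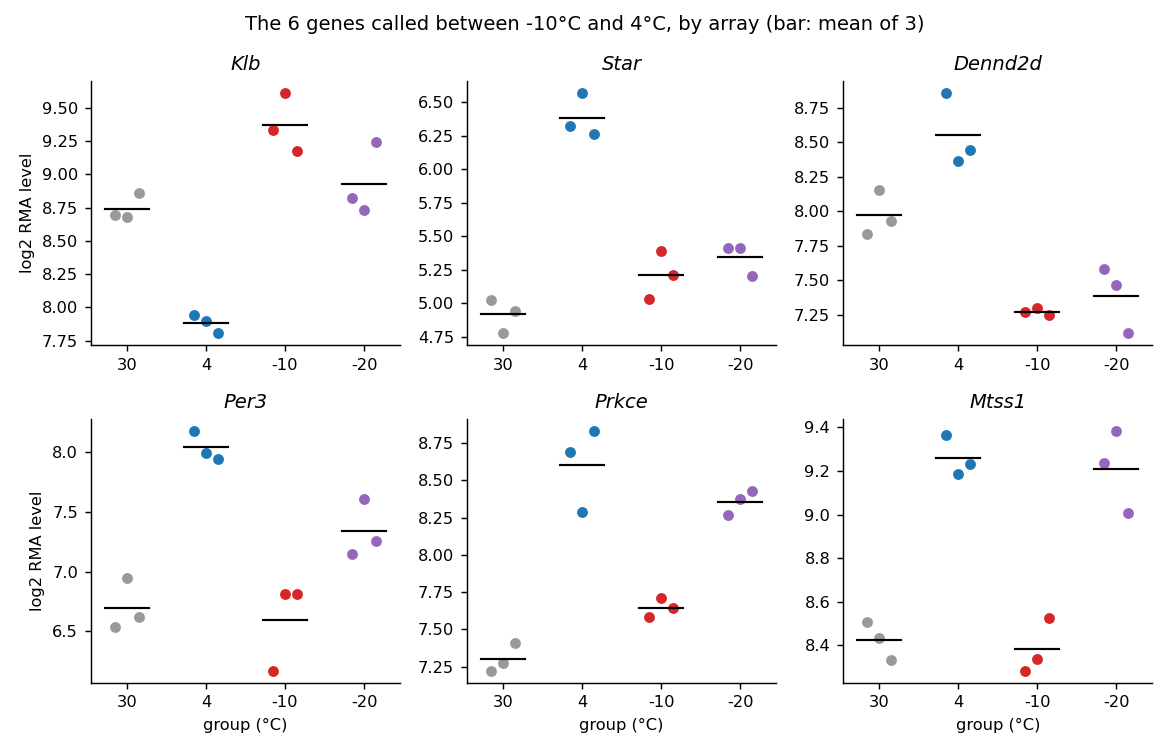
Log2 RMA level of the 6 called genes on each of the 12 arrays (points) with the mean of each group of 3 (bars), ordered from the warmest group to –10°C/–20°C (marked -20). In each panel the red –10°C points do not overlap the blue 4°C points, as for *Klb* at 9.18 to 9.61 against 7.81 to 7.94.

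Just outside the threshold stood genes outside the naming rule, chosen after their values were seen. *Carhsp1*, which encodes an RNA-binding protein, read 8.92, 8.92 and 8.76 with 4°C and 8.12, 8.23 and 8.24 with –10°C (-0.67 ± 0.10, adjusted p = 0.0546). *Bcar3*, an adaptor of cell adhesion signaling, read 8.57, 8.43 and 8.58 against 7.64, 7.25 and 7.87 (-0.94 ± 0.14, adjusted p = 0.0629). *Pmepa1*, an inhibitor of TGF-β signaling, read 10.35, 10.29 and 10.43 against 9.03, 9.36 and 9.67 (adjusted p = 0.0732). In all 3 the –10°C arrays were lower without overlap.

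*Per3*, on chromosome 4, is a period gene of the circadian clock and the 1 clock gene called. It read 8.18, 7.99 and 7.95 with 4°C and 6.17, 6.82 and 6.81 with –10°C. The highest –10°C array was more than a unit below the lowest 4°C array, and the difference was -1.44 ± 0.19 (2.71-fold lower, interval 2.04 to 3.61, adjusted p = 0.0269). The 30°C arrays, at 6.53, 6.94 and 6.62, were at the –10°C level, with –10°C different from 30°C by -0.10 (adjusted p = 0.882), while 4°C was 1.34 above 30°C (adjusted p = 0.00489).

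The promoters of the clock genes were read for the DNA elements through which clock proteins are known to act, because most of these genes lay apart between the groups. Sequences are from RefSeq (GRCm38.p6), on the strand of the gene, and windows run from 250 bases before to 50 after the start. Of the 25 genes made up of the called genes and the clock lists, 19 had at least 1 window in the table. These genes had 30 windows, so the counts of genes below are not on the scale of the shares of windows. On both strands, the E-box CACGTG, bound by CLOCK and BMAL1, occurred in windows of 5 of these genes and in 7.15% of all 32851 windows. The D-box TTATGTAA or TTACGTAA, bound by DBP, TEF and HLF, occurred in 1 of them, *Per3*, and in 1.06% of all windows. The element TAGGTCA, bound by REV-ERB and ROR receptors, occurred in *Arntl* and *Nfil3* and in 2.61% of all windows. The stretches below show the 2 D-boxes of *Per3*, starting at bases -205 and -158 from its start, and the E-box in 4 other genes, all upstream of the start, with the elements in capitals. The *Per3* stretch is chr4:151044786-151044895 on the minus strand, that of *Tef* chr15:81802493-81802602 on the plus strand, that of *Per1* chr11:69098729-69098838 on the plus strand, that of *Bhlhe41* chr6:145865521-145865630 on the minus strand, and that of *Cry1* chr10:85185060-85185169 on the minus strand. A match describes the letters in this window and is not a measured site.
Per3: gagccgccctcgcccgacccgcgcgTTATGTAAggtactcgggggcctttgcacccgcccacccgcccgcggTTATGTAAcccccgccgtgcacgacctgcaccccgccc
Tef: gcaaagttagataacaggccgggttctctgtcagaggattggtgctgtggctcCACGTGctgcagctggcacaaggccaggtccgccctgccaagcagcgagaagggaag
Per1: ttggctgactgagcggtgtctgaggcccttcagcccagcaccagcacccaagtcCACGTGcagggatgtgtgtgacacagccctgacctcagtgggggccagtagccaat
Bhlhe41: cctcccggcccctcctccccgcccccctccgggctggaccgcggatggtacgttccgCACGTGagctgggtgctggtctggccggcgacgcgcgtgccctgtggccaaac
Cry1: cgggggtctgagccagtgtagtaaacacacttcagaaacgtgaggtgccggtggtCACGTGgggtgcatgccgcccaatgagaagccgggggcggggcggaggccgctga

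Of 18 core clock genes listed 12 were measured, and of these 1 was called lower and 0 higher. The arrays were separate for 10, 7 with –10°C lower and 3 with –10°C higher, beside backgrounds of 5.64% and 8.12%. The 3 higher genes were those of the activating pair, CLOCK or NPAS2 with BMAL1. *Arntl*, which encodes BMAL1, read 4.78, 5.54 and 4.42 with 4°C and 7.30, 6.68 and 6.58 with –10°C, a difference of 1.94 ± 0.43 (3.83-fold, adjusted p = 0.234). *Npas2* read 5.46, 6.43 and 5.50 with 4°C and 7.50, 7.42 and 6.72 with –10°C (1.41 ± 0.31, adjusted p = 0.234). *Clock* read 8.86, 9.07 and 8.96 with 4°C and 9.83, 9.69 and 9.71 with –10°C (0.78 ± 0.13, adjusted p = 0.113). In all 3 the groups were apart, and the 4°C arrays of *Arntl* were near background, with 1 of them below it.

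Measured repressors of the loop with separate arrays stood the other way. *Nr1d2*, which encodes REV-ERBβ, read 9.47, 9.45 and 9.32 with 4°C and 7.79, 8.62 and 8.83 with –10°C (-1.001 ± 0.30, adjusted p = 0.434). *Bhlhe41* had a difference of -1.02 (adjusted p = 0.322), *Per1* -0.62 (adjusted p = 0.253) and *Cry1* -0.26 (adjusted p = 0.721), and in each the 3 –10°C arrays were the lower ones. *Rora*, which encodes a ROR receptor, and *Csnk1e*, which encodes a kinase, are not such repressors. They were also separate and lower, at -0.23 and -0.06. *Csnk1d*, another kinase gene, overlapped, and so did the repressor *Bhlhe40*, at -0.37. None of these 8 passed the test.

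Output factors gave the single largest difference of the comparison. *Dbp* read 10.98, 10.75 and 10.83 with 4°C against 7.49, 8.80 and 9.21 with –10°C, a difference of -2.35 ± 0.39 (5.11-fold lower, interval 2.80 to 9.31, adjusted p = 0.103). The 4°C arrays were tight and the –10°C arrays spread over more than 1.5 units, with replicate 1 lowest. *Tef* read 8.24, 7.96 and 7.97 against 6.63, 7.08 and 7.34 (-1.04 ± 0.17, adjusted p = 0.0952). *Hlf* read 7.51, 7.27 and 7.24 against 5.98, 6.58 and 6.58 (-0.96 ± 0.16, adjusted p = 0.101). Of the 8 output genes 6 had all –10°C arrays lower, these 3 and *Usp2*, *Wee1* and *Tspan4* with differences of -0.89, -0.79 and -0.56, and 0 were called. The list's median was -0.84 beside 0.02 over all genes, and without –10°C replicate 1 it was -0.64. *Nfil3*, a repressor at D-boxes, was at 5.54, 5.51 and 5.53 with 4°C and 6.86, 6.66 and 5.48 with –10°C, with replicate 3 inside the 4°C range. *Dbp* and *Tef* were called when –10°C replicate 3 was left out. With array weights, which called 49 genes, *Dbp*, *Tef*, *Hlf*, *Arntl*, *Npas2* and *Clock* were among them. *Clock* was also called without –10°C/–20°C replicate 1.

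*Dbp* was 3.48 above 30°C with 4°C (adjusted p = 0.00138) and 1.12 above it with –10°C (adjusted p = 0.119). *Arntl* differed from 30°C by -2.39 with 4°C (adjusted p = 0.0141) and by -0.46 with –10°C (adjusted p = 0.675). *Per1* stood the other way, at -0.10 with 4°C (adjusted p = 0.901) and -0.72 with –10°C (adjusted p = 0.013). Over the clock lists, 12 of 20 genes were called between 4°C and 30°C, beside 452 of 14860 genes (3.04%), and 2 of 20 between –10°C and 30°C, beside 1239 genes (8.34%). These comparisons share arrays with that of –10°C and 4°C.

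**Figure D4:**
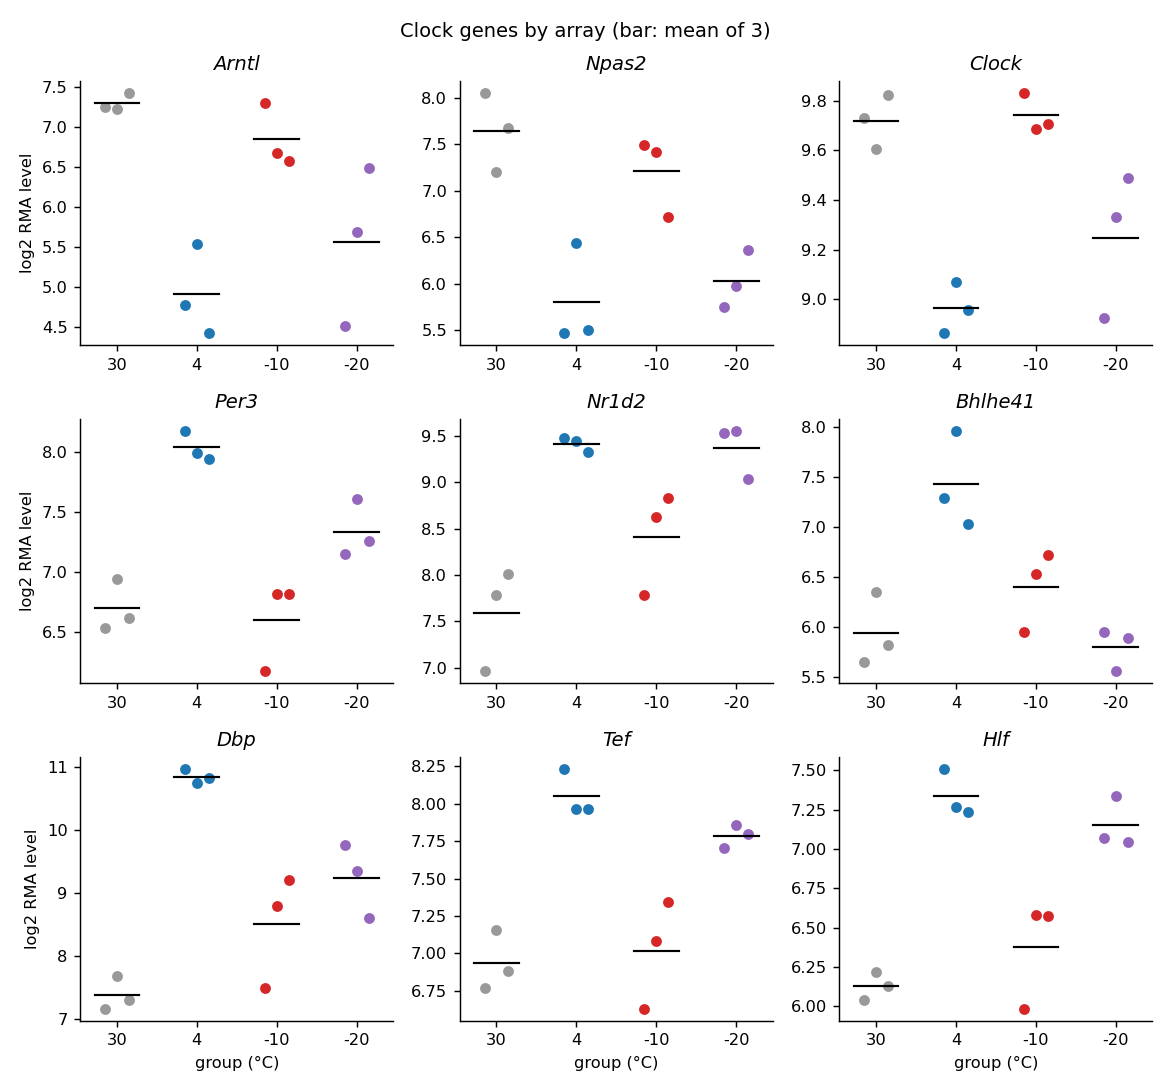
Log2 RMA level of 9 clock and clock output genes on each of the 12 arrays (points) with the mean of each group of 3 (bars), ordered from the warmest group to –10°C/–20°C (marked -20). *Arntl*, *Npas2* and *Clock* are lower in blue (4°C) than in red (–10°C), and *Per3*, *Nr1d2*, *Bhlhe41*, *Dbp*, *Tef* and *Hlf* are higher in blue.

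Of 23 thermogenic genes 0 were called, and 4 had every –10°C array above every 4°C array, beside a background of 8.12%. The list's median was 0.13, and 0.23 without –10°C replicate 3. *Cidea*, a lipid droplet protein of brown fat, read 6.07, 5.75 and 6.62 with 4°C and 7.67, 7.22 and 7.76 with –10°C, without overlap (1.40 ± 0.37, adjusted p = 0.317). *Cox8b*, a subunit of cytochrome oxidase typical of brown fat, read 8.10, 7.14 and 8.01 against 9.372, 8.996 and 8.72 (1.28 ± 0.30, adjusted p = 0.249). The groups were apart in both. *Dio2*, the deiodinase that makes active thyroid hormone, was below background on all 3 4°C arrays, at 4.45, 4.38 and 4.42, and at 6.09, 7.46 and 4.81 with –10°C. It was at least 3.03-fold higher with –10°C by mean level against background (adjusted p = 0.376), a bound that was 1.91-fold without –10°C replicate 2 and 4.77-fold without replicate 3.

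*Elovl3*, a fatty acid elongase of brown fat, was below background on the 4°C arrays, at 3.001, 2.94 and 4.16, and read 4.99, 7.14 and 3.96 with –10°C. It was at least 1.79-fold higher by the means (adjusted p = 0.563), –10°C replicate 3 lay inside the 4°C range, and without –10°C replicate 2 the –10°C mean was below background, so that no bound was left, while it was 2.92-fold without replicate 3. *Ucp1*, the uncoupling protein itself, was below background on all 6 arrays, at 3.65 to 3.93. *Ppargc1a*, a coactivator for mitochondrial genes, had a difference of 0.84 ± 0.43 with overlapping arrays (adjusted p = 0.769), and *Prdm16*, a regulator of brown fat identity, had 0.01, with an interval of -0.22 to 0.24. *Irf4*, another regulator, was the lowest of the list at -0.93.

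Mitochondrial genes had small, mostly positive differences, none of them called. Of 35 respiratory chain genes 0 were called, yet all 35 differences were positive, between 0.08 for *Cox7a2* and 0.37 for *Cyc1*, and for 26 every –10°C array lay above every 4°C array, beside a background of 8.12%. The median was 0.25 and each of the 35 intervals lay within 2-fold. *Cyc1*, cytochrome c1, read 8.82, 8.52 and 8.72 with 4°C and 9.18, 9.10 and 8.91 with –10°C (0.37 ± 0.13, adjusted p = 0.541). Of 15 tricarboxylic acid cycle genes 11 were separate and higher with –10°C, with a median of 0.27 and *Pdhb*, a subunit of pyruvate dehydrogenase, highest at 0.55 (adjusted p = 0.589) and *Idh2* lowest at -0.03. Of 15 genes of mitochondrial fatty acid oxidation 9 were separate and higher, with a median of 0.21, while *Cpt1a*, which gates entry of fatty acids, was separate and lower at -0.31. With the G mark as a block the 3 medians were 0.17, 0.17 and 0.12. Genes within such a list share their arrays and are not independent.

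Lipid synthesis spread more widely, and 0 of 18 fatty acid synthesis genes were called. *Elovl6*, which elongates palmitate, read 9.74, 8.12 and 10.54 with 4°C and 11.11, 10.85 and 10.13 with –10°C (1.23 ± 0.48, adjusted p = 0.614). The groups overlapped through the highest 4°C array, and 4°C replicate 2 was far below the others. *Acly*, which makes cytosolic acetyl-CoA, had a difference of 1.04, *Fasn* 0.39 and *Scd1* 0.06. The list's median of 0.41 was 0.18 without 4°C replicate 2. *Scd3*, a desaturase, read 3.98, 4.86 and 4.21 with 4°C, 2 of them below background, and 5.08, 6.07 and 5.20 with –10°C (1.10 ± 0.37, adjusted p = 0.511). Of 17 cholesterol synthesis genes 0 were called and 4 were separate and higher, with a median of 0.45. *Lss*, lanosterol synthase, was highest at 0.77 (adjusted p = 0.433), and that median was 0.30 without 4°C replicate 2 or without –10°C replicate 1.

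Genes of fat storage and release changed little. Among 12 triglyceride synthesis genes the median was -0.02, beside 1.08 for 4°C against 30°C, and all 12 intervals lay within 2-fold. *Lpin1*, a phosphatidate phosphatase, read 11.27, 11.13 and 11.21 with 4°C and 10.56, 10.78 and 10.78 with –10°C (-0.49 ± 0.11, adjusted p = 0.234). Among 19 lipolysis genes the median was -0.01 and 17 intervals lay within 2-fold. *Prkar2b*, a regulatory subunit of protein kinase A, was separate and lower at -0.49 (adjusted p = 0.249), *Pnpla2*, the first lipase of triglyceride, had 0.05, and *G0s2*, its inhibitor, had 0.53 with overlapping arrays. In glucose and glycogen metabolism *Ppp1r3b*, which targets phosphatase to glycogen, read 5.58, 5.17 and 6.39 against 8.18, 5.90 and 6.51 (1.15 ± 0.51, adjusted p = 0.684), with –10°C replicate 1 far above the rest.

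Of 14 measured adipokine and adipocyte identity genes 0 were called, with a median of 0.03. In each direction 1 gene was separate, and *Rbp4* was highest at 0.35 with overlapping arrays. The adipokines the paper names were level except for *Lep* on 1 array. *Adipoq*, adiponectin, had a difference of -0.02 (interval -0.20 to 0.15) and *Retn*, resistin, 0.06 (interval -0.13 to 0.25). *Lep*, leptin, read 10.72, 9.62 and 10.003 with 4°C and 10.97, 6.89 and 10.35 with –10°C. A single –10°C array was more than 3 units below the other 2, which lay inside or above the 4°C range, and the difference of -0.71 ± 0.83 has an interval of -2.53 to 1.11 that excludes neither direction (adjusted p = 0.999).

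Macrophage and matrix genes had negative medians and endothelial genes a median near 0, and no marker of these lists was called. In whole tissue fewer cells of a type cannot be told apart from less RNA per cell. Of 20 macrophage genes 10 had every –10°C array lower, beside 5.64% of all genes, and 0 were called, with a median of -0.32. *Folr2* read 9.34, 9.19 and 9.12 with 4°C and 8.72, 8.67 and 8.59 with –10°C (-0.56 ± 0.11, adjusted p = 0.197), and *Cd163* read 8.44, 8.17 and 8.11 against 7.67, 7.69 and 7.59 (-0.59 ± 0.14, adjusted p = 0.249). Both mark resident macrophages, and in both the groups did not overlap. *Gpnmb* and *Mmp12*, genes of lipid-laden macrophages, had positive differences of 0.44 and 0.33. The 4 defining macrophage markers were above background on all 6 arrays, with mean levels of 8.78 to 8.88 on the 4°C arrays and 8.33 to 8.59 on the –10°C arrays. Their part in the other differences was not tested.

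Matrix genes had a median of -0.22 over 20 (-0.35 without 4°C replicate 3), with 6 separate and lower. *Col1a2*, a chain of type I collagen, read 9.86, 10.35 and 9.96 against 9.20, 9.36 and 9.67 (-0.65 ± 0.19, adjusted p = 0.434). Endothelial genes had a median of 0.04, and 1 gene was separate in each direction, *Kdr*, a VEGF receptor, at 0.34 (adjusted p = 0.485) and *Podxl*, a sialomucin of the cell surface, at -0.30 (adjusted p = 0.511). Of 12 epididymis and testis genes 3 were above background. *Prm2*, a protamine of sperm, read 5.83, 6.79 and 5.28 with 4°C and 5.36, 7.91 and 8.06 with –10°C, and was highest on –10°C replicates 2 and 3. The mean level of the 4 measured defining markers of that tissue was 4.25 to 4.57 with 4°C and 4.35 to 5.51 with –10°C, and its part in the other differences was not tested.

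Immediate-early genes, which respond to stimuli within minutes, had a median of -0.70 over 18, with 0 called and 1, *Atf3*, separate. *Fos* read 6.54, 7.50 and 9.68 with 4°C and 5.75, 5.80 and 7.01 with –10°C (-1.72 ± 0.72, adjusted p = 0.654). The 4°C arrays differed among themselves by more than 3 units, and without 4°C replicate 3 the median of the list was -0.20, without 4°C replicate 1 it was -1.08, and with the G mark as a block it was -1.24.

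**Figure D5:**
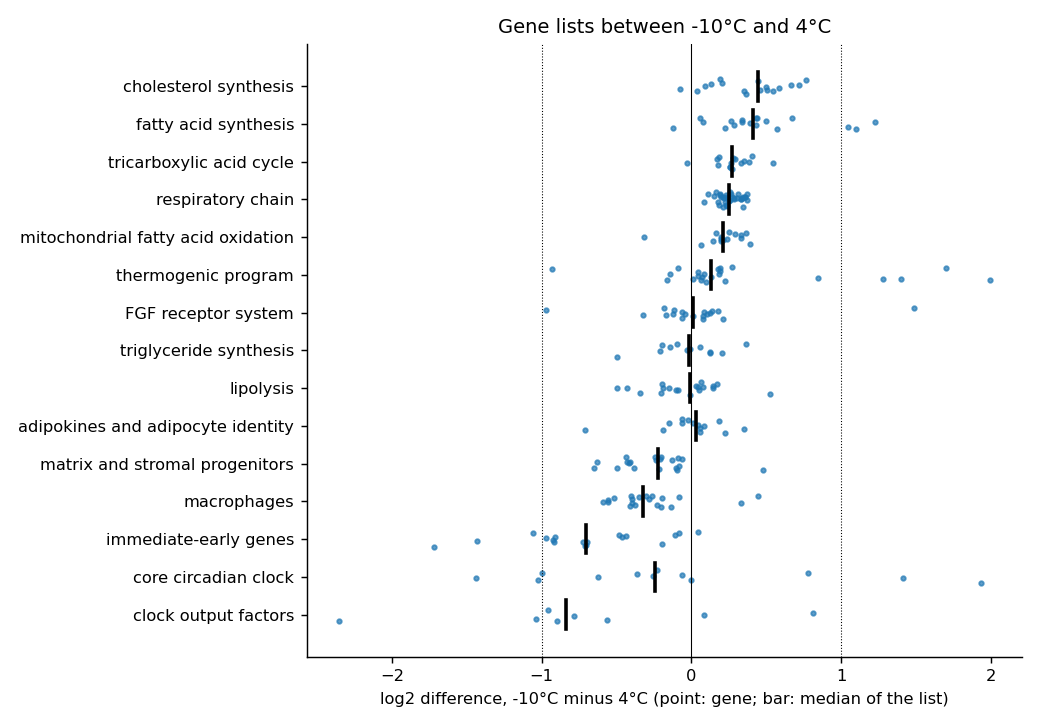
Log2 difference of –10°C minus 4°C (group means of 3 arrays) for each measured gene (points) of 15 gene lists, with the median of each list (bars); dotted lines mark 2-fold. The respiratory chain points all lie between 0.08 and 0.37, and the clock lists reach from -2.35 to 1.94.

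Among the other genes past 2-fold with separate arrays, *Glrx* came nearest to a call. It encodes glutaredoxin and read 8.24, 8.49 and 8.17 with 4°C and 9.88, 9.78 and 9.15 with –10°C (1.30 ± 0.20, adjusted p = 0.0732). *Dusp10*, a phosphatase of stress kinases, read 6.68, 7.07 and 6.60 against 8.83, 8.003 and 7.70 (1.40 ± 0.28, adjusted p = 0.197). *Ptger3*, a prostaglandin E2 receptor that restrains cAMP, had a difference of 1.16 ± 0.41 (adjusted p = 0.533), and the cell cycle inhibitor *Cdkn1a* had 1.01 ± 0.22 (adjusted p = 0.234). For these genes every –10°C array lay above every 4°C array.

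On the lower side *Serpina3b*, a serine protease inhibitor gene of a family of close copies whose probes may cross-react, read 6.82, 7.48 and 7.70 with 4°C and 4.51, 6.64 and 5.16 with –10°C (-1.90 ± 0.45, adjusted p = 0.249). *Sult1e1*, the estrogen sulfotransferase, read 8.65, 9.32 and 8.42 against 6.11, 7.66 and 7.68 (-1.65 ± 0.48, adjusted p = 0.42). *C6*, a complement component, read 8.36, 8.95 and 8.46 against 7.06, 7.40 and 7.53 (-1.26 ± 0.27, adjusted p = 0.234). *Sult1e1* and *C6* were also below 30°C with –10°C, by differences of -2.20 and -1.41 (adjusted p = 0.0158 and 0.00798), whereas with 4°C they differed from 30°C by -0.55 and -0.16 (adjusted p = 0.75 and 0.918). *Rasl11b* and *Tgtp1* had differences of -1.09 and -1.29, again with separate arrays and neither called.

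Most genes that differed between a cold group and 30°C lay within 2-fold between the 2 states. Of the 452 genes called between 4°C and 30°C, 398 had a –10°C to 4°C interval within 2-fold and 5 were called between –10°C and 4°C. Of the 1239 called between –10°C and 30°C, 1150 had an interval within 2-fold and 2 were called. Over all 14860 genes, those below background included, 14147 (95.2%) had an interval within 2-fold and 6 (0.0404%) were called. In both sets the share within 2-fold was smaller, and the share called larger, than over all genes. Both sets were picked on arrays that also enter the –10°C to 4°C difference. Such a shift can arise from that choice alone, so no conclusion is drawn from it. The median absolute difference between –10°C and 4°C was 0.21 in the first set and 0.23 in the second, beside 0.09 over all genes, and these comparisons share arrays with that of –10°C and 4°C.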

How the data were processed

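RNA of eWAT was hybridized in triplicate to Affymetrix exon arrays of the mouse. The deposited values are log2 levels, for which the submitters' processing notes name RMA and Affymetrix Expression Console, with versions not given in the sources used here. RMA corrects background and normalizes between arrays, so a shift shared by most genes would not be seen. No further normalization was applied. Of 23332 probe sets, 14996 had 1 gene symbol, and the 8336 others were tested apart. The probe set with the highest mean over the 12 arrays was kept for each of 14860 genes, 135 of which had several.

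Differences were fitted with limma 3.58.1 (lmFit and then eBayes, run under R 4.3.3) on the arrays of all 4 groups, with Benjamini-Hochberg adjustment over 14860 genes and a threshold of 0.05. The fit was tested on simulated data with noise drawn independently for each gene and array. That test does not cover deviations that many genes of an array share. Where all arrays of a group were below background, a bound on the fold was taken from the brighter mean and the background level, without sampling error. Tables and figures used Python 3.11.15, numpy 2.4.6, pandas 2.3.3 and matplotlib 3.10.9. Adjusted p-values are from limma. The 31 gene lists (metabolism, signaling families of the called genes, the clock, and markers of other cells) and the named genes were chosen with earlier results of these data known. Named genes were those called, the 10 largest differences in each direction with separate arrays, the genes the paper names, and 2 per list with the largest difference. Further members of the lists are given by their roles, and were picked with their values known. Alternatives were another test, prior, low-value filter, normalization, centring, set of arrays or probe sets, array weights, the replicate number or form of array name as a block, a 2-fold threshold, and each of the 12 arrays left out in turn. Counts past 2-fold of the other comparisons, and fold bounds without single arrays, were added after seeing the data.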

Additional observations from a re-analysis of the deposited data

How the results depend on the processing

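With 3 arrays per group, and signal over background as the limit for dim genes, the count of called genes moved with the setting. Against 6 genes called in the main fit (1 higher, 5 lower), the methods' t-test gave 0 after adjustment (0 higher, 0 lower) and 1188 without it, and fitting only the 6 arrays gave 0 (0 and 0). All probe sets gave 2 called (1 lower), array weights gave 49 (10 higher, 39 lower), repeated quantile normalization 4 (3 lower), centring on array medians 4 (3 lower), and a 2-fold threshold 4 (3 lower). The form of array name as a block gave 0 called (0 higher, 0 lower, 724 at an unadjusted p of 0.05), and the arrays sharing the mark of the –10°C arrays, with 1 of 4°C, gave 1, *Egr2*, lower (0 higher). That lone array is assumed to vary like the others. With the replicate block 7 were called, 2 of them higher and 5 lower. The same-numbered arrays deviated together for replicates 1 and 2 (r = 0.44 and 0.45) and in opposition for replicate 3 (r = -0.31). As deviations from means of 3 arrays, these values cannot decide whether same-numbered arrays belong together. The labels give only the number.

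Leaving out each of the 12 arrays gave 0 to 14 called genes (0 to 5 higher, 0 to 9 lower), the lowest without 4°C replicate 1 or –10°C replicate 1 and the highest without –10°C replicate 3. *Klb* and *Star* were called in 10 of these 12 fits, *Dennd2d* in 7, *Mtss1* and *Per3* in 4 and *Prkce* in 2. Genes past 2-fold numbered 40 to 111, highest without 4°C replicate 2, and were 86 over all probe sets, 106 with the form of array name as a block and 204 over the arrays sharing the mark. Genes with an interval within 2-fold numbered 13810 to 14149 with an array left out, 13282 with the methods' t-test, 13594 with the form of array name as a block and 12945 over the arrays sharing the mark. Over the arrays sharing the mark 4 uncalled genes changed sign, *Ebf2* to 0.018, *G0s2* to -0.003, *Baiap2l1* to 0.23 and *Grb14* to 0.19. Causes were not tested. Of 73 other named genes, 14 were called in at least 1 setting.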

Other observations

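Of 19 stress response genes 0 were called, with 4 separate and lower with –10°C and 1 separate and higher. The 4 included *Tsc22d3*, *Fkbp5* and *Mt2*, named after their values were seen, with log2 differences of -0.82, -0.72 and -0.45. Lymphocyte genes had a median of -0.35 over 16 genes (-0.65 without –10°C replicate 1, -0.55 without 4°C replicate 2 and -0.19 without –10°C replicate 3), with *Il7r*, the interleukin-7 receptor, at 5.92, 5.46 and 5.43 with 4°C and 5.29, 5.08 and 4.65 with –10°C (-0.59 ± 0.20, limma adjusted p = 0.487), and 0 called. Mesothelial genes had a median of -0.41 over 7 (-0.67 without 4°C replicate 3, -0.25 without 4°C replicate 1 and -0.27 with the G mark as a block), where *Upk3b* read 10.30, 10.22 and 9.59 against 9.71, 9.67 and 9.14. Genes of dividing cells (median -0.11 over 12), nerves (0.05 over 7) and skeletal muscle (0.01 over 9) held 0 calls, and the 15 genes of insulin signaling all had intervals within 2-fold.

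Of the 8336 probe sets with several symbols or none, limma called 0 (411 at an unadjusted p of 0.05, smallest adjusted p = 0.0747), and 46 differed by 2-fold or more.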
